A study of Mus musculus with 24 samples.

Results

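The genes described here encode the protein subunits of the mouse cytosolic ribosome. They were taken by name from the deposited gene table: every row whose Ensembl identifier has, in the GENCODE M21 annotation (GRCm38), a protein-coding symbol of the form Rpl or Rps with a number (and at most 1 suffix letter a, l, x or y), or the symbol Rplp0, Rplp1, Rplp2 or Rpsa. This gave 77 of the table's 17149 genes, 46 of the large and 31 of the small subunit. The annotation holds 80 such genes, and the table given here has no row for Rpl3l, Rpl10l and Rpl39l. No measured value entered the choice.

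RNA had been sequenced from mouse bone marrow progenitors sorted as LSK cells (negative for lineage markers, positive for Sca1 and Kit). The study asked how the transcription factor TAL1 bears on lymphoid specification. Control mice (Ctrl) are labelled Tal1 F/F and wild type, and the others (KO) carried VaviCre with Tal1F/F. Vav-driven iCre is active across blood cells, so the deletion is not limited to the sorted stage. All mice of both genotypes carried the Rag2GFP reporter. CD135-negative LSK cells (HSC) and CD135-positive LSK cells (LMPP) were each sorted into Rag2-GFP-negative and Rag2-GFP-positive cells, which makes 8 groups of 3 libraries. The labels give no age and do not say that replicates came from separate mice, so a p-value measures only the spread between these libraries.

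A ribosome is built from ribosomal RNA and about as many small proteins as there are genes in this family, with each protein present in a single copy except those of the stalk. Subunits are therefore needed in near-equal amounts. Most of the mRNAs begin with a run of pyrimidines, the 5′ terminal oligopyrimidine (TOP) tract, through which mTORC1 and LARP1 adjust their translation. Haematopoietic stem cells are known for a low and tightly held rate of protein synthesis. Mutations in single ribosomal protein genes, RPS19 first among them, cause Diamond-Blackfan anaemia, in which red cell production fails.

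The annotated start-site sequences show a run of pyrimidines in part of the family. RefSeq start-site windows (GRCm38.p6) were at hand for 57 of the 77 genes. In a window from 40 bases before to 20 bases after the annotated start, an unbroken run of at least 8 C or T bases stood in 34 of the 57 (59.6%), against 27.2% of 10064 protein-coding genes tested. A start at C followed directly by 4 bases of C or T was found in 13 of the 57 (22.8%), against 2.93%. The letters CGGAAG, the core that ETS-family factors bind, were searched on both strands in the 300 bases from 250 before to 50 after the start. They occurred in 40 of the 57 (70.2%), against 34.6% of all. These matches describe letters and are not measured sites. The starts are annotated and were not measured here, so a missing match does not show that a TOP tract is absent. The windows below were chosen because they carry the tract at the start (Rpl28, Rplp2, Rps6, Rps10, Rps27) and because the paralogues Rps27 and Rps27l, whose values part below, differ there. Each runs 5′ to 3′ on the gene's strand, and capitals mark the longest C or T run, or the first where lengths are equal.
Rpl28 (chr7:4792925-4792984, plus strand): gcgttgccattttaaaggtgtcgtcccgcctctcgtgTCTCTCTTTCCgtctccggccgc
Rplp2 (chr7:141447611-141447670, plus strand): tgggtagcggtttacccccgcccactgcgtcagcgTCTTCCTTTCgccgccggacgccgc
Rps6 (chr4:86857348-86857407, minus strand): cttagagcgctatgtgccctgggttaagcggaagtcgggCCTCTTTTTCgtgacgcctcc
Rps10 (chr17:27635225-27635284, minus strand): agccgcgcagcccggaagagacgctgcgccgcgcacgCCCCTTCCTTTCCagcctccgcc
Rps27 (chr3:90213629-90213688, minus strand): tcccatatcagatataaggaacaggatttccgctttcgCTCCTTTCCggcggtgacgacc
Rps27l (chr9:66946046-66946105, plus strand): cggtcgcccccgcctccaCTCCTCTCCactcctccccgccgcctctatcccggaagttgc
In the first 5 windows the longest run spans the annotated start. In the Rps27l window a run of 9 bases begins 22 bases before the start. Another run of the same length follows it and also ends before the start. The other Rps27l start has a longest run of 5.

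Values are the authors' normalised counts, with library totals of 6906083 to 11969093. The number of reads behind them is unknown. Ctrl HSC GFP-positive replicate 2 and KO LMPP GFP-positive replicate 3 had 11982 and 11684 genes above 1 normalised count, against 13583 to 15957 elsewhere, and are called the 2 libraries of low detection. Medians over the 77 genes in the comparisons that use them are given with and without them. Tal1 itself was lower in every KO library than in every Ctrl library of the same population (253 to 518 against 1523 to 2109 in GFP-negative HSC, 140 to 308 against 326 to 815 in GFP-positive HSC, 253 to 335 against 667 to 984 in GFP-negative LMPP, 0.499 to 136 against 396 to 575 in GFP-positive LMPP). The gate markers Kit, Ly6a, Flt3 and Cd34 had rows and were summed to between 8762 and 18379 in every library.

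All 77 ribosomal protein genes passed the filter on low values (at least 1 ppm of the library total in at least 3 libraries, which 16215 genes passed). They are short and abundant. Their longest coding transcripts had a median of 914 bases, against 3111 for protein-coding genes tested, and 75 of the 77 stood in the top 5% of genes by mean level. Per kilobase of that transcript, the highest mean levels were those of Rpl41 (14578 normalised counts per kb), whose product is the smallest ribosomal protein, Rps29 (14113), Rpl37a (9530), Rpl32 (8546) and Rpl10a (8474). The lowest were those of Rps27l (610), Rpl18 (835), Rps15a (944), Rpl34 (1087) and Rpl15 (1284). Rps15a and Rpl18 rank low in part by construction, because their longest annotated transcripts (5179 and 2989 bases) serve as the length. Rps27l was the lowest gene in absolute counts too, at 150 in its lowest library, while no other member fell below 506 in any library. The annotation names 300 ribosomal protein pseudogenes, and the 56 with rows summed to between 0.61 and 1.38% of the 77 genes' sum. No label says how reads shared with such copies were counted, so values of the 59 genes with a named pseudogene carry that uncertainty.

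Summed over the 77 genes, ribosomal protein transcripts were least abundant in KO HSC GFP-positive cells, at 247445 ± 8583 normalised counts (SD, n = 3). They came to 254938 ± 22417 in KO LMPP GFP-negative, 268509 ± 12623 in Ctrl LMPP GFP-negative, 270138 ± 12348 in KO HSC GFP-negative and 271864 ± 52300 in Ctrl HSC GFP-negative cells. Ctrl LMPP GFP-positive cells followed at 284349 ± 62792. Neighbouring means in this order differed by less than the larger SD of the pair. Ctrl HSC GFP-positive cells had a higher mean, 358610 ± 20282, from 373721, 335559 and 366551, although 1 Ctrl LMPP GFP-positive library reached 355277. All 3 Ctrl HSC GFP-positive libraries lay above the 3 libraries of KO HSC GFP-positive cells, at 255498, 238416 and 248420. KO LMPP GFP-positive cells had the highest mean, 396884 ± 172224, but it was set by 1 library: the values were 305013, 290074 and 595564, the last being the library of low detection. Without it the mean of the other 2 was 297544. As a share of all nuclear protein-coding counts except those of Lars2, the genes made up 8.77% in that library and between 4.57 and 7.24% in the other 23. In bulk RNA, a change in these shares can come from fewer cells of a type or from less RNA per cell, and the 2 cannot be told apart.

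**Figure D1:**
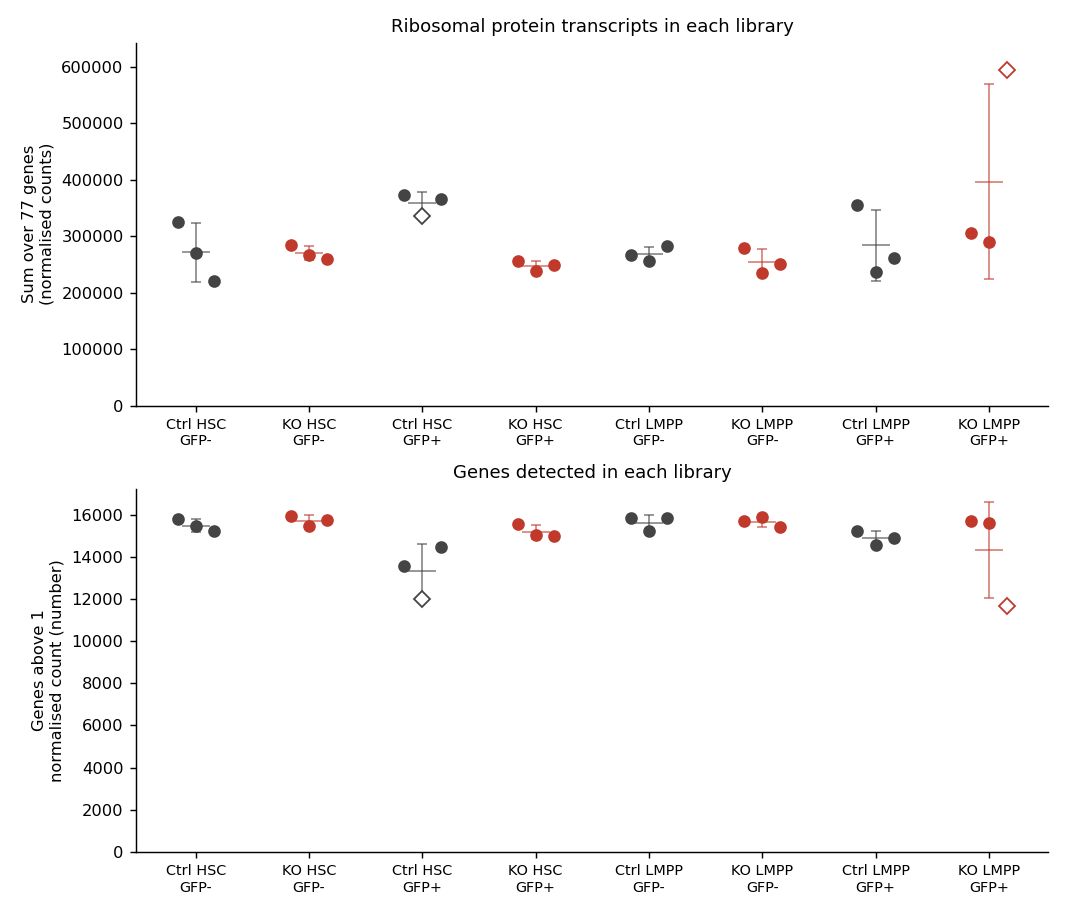
Sum over the 77 ribosomal protein genes (top, normalised counts) and number of genes above 1 normalised count (bottom) in each library, by group. Points are libraries (dark grey Ctrl, red KO, open diamonds the 2 libraries of low detection), and bars are the mean ± SD of 3. The 3 Ctrl HSC GFP-positive libraries lie between 335559 and 373721, above the KO HSC GFP-positive libraries, and 1 KO LMPP GFP-positive library stands at 595564.

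The clearest difference between genotypes was in HSC GFP-positive cells, where the ribosomal protein genes were lower in KO almost without exception. Differences below are on the log2(value + 4.1) scale. The median over the 77 genes was -0.52 while the median over all genes was 0.19, and 76 of the 77 differences were below 0, against 40.1% of all genes. Rpl24, at 0.06, was the exception. Median-ratio scaling moved the median of all genes to 0.06 and that of the 77 genes to -0.70, with the same single call. Both subunits shared the shift, with medians of -0.53 (small) and -0.52 (large). In 37 of the 77 genes every KO library lay below every Ctrl library, a pattern that 4.95% of all genes showed. At an unadjusted p under 0.05 there were 27 genes, against 15.3% of all genes. After adjustment over all genes (limma, Benjamini-Hochberg, threshold 0.05) 1 of the 77 passed and was lower in KO, against a background of 0.432% called. That count was 0 with array weights, 0 from the 6 compared libraries alone, and 0 in 4 of the 6 fits that left out 1 library (Ctrl replicate 2 or KO replicate 1, 2 or 3). It was higher with a block on the replicate number, as given in the last part.

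Several members had large differences in this comparison without passing. Rpl32, a large subunit gene, stood at 10503, 9463 and 10212 in Ctrl and 6634, 5867 and 5703 in KO (log2 difference -0.73, SE 0.19, adjusted p = 0.0787). Rpl41 stood at 14692, 13411 and 12871 against 6273, 5474 and 8225 (-1.06, SE 0.3, adjusted p = 0.113). In neither did the groups overlap. The stalk genes, whose products recruit elongation factors to the ribosome, gave -0.50 (Rplp0), -0.90 (Rplp1) and -0.77 (Rplp2), with adjusted p of 0.201, 0.26 and 0.139. Among Diamond-Blackfan anaemia genes, Rps19 stood at 3704, 3696 and 3857 in Ctrl and 2085, 2200 and 2260 in KO, with no overlap (-0.78, SE 0.24, adjusted p = 0.137). The others ranged from 0.00 for Rpl5, which with Rpl11 binds the p53 regulator MDM2, to -0.72 for Rpl26, with Rpl11 at -0.45, Rps24 at -0.55, Rps7 at -0.69, Rps10 at -0.63, Rps26 at -0.48 and Rpl35a at -0.56. Rps6, the subunit that S6 kinase phosphorylates, differed by -0.19 (4297, 4162 and 3569 in Ctrl, 3700, 3466 and 3380 in KO), with adjusted p = 0.803. Of the other members read in every comparison, Rps14, the gene lost in the 5q- syndrome, stood at 2198, 3947 and 2666 in Ctrl and 1684, 1366 and 1658 in KO (-0.87, adjusted p = 0.189). Rpl10, which joins the large subunit late, stood at 5666, 6170 and 4727 against 3326, 3776 and 2464, also without overlap (-0.80, adjusted p = 0.147). Rpl38, known from its part in patterning of the skeleton, gave -0.68, Rps27a, made as a fusion with ubiquitin, gave -0.49, Rpl13a -0.47, Rpl22, whose loss impairs T cell development, -0.45, and Rps3 -0.32. Rpl23 (-0.18), Rpl3 (-0.12) and the X-linked Rps4x (-0.05) were close to 0. None of the genes in this paragraph passed.

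Leaving out both libraries of low detection moved both medians down by similar amounts. The median of the 77 genes became -0.61 and that of all genes 0.09. With 2 Ctrl libraries left, in 61 of the 77 every KO library lay below every Ctrl library (12.6% of all genes), and 5 genes fell, against 1.92% of genes called. Among them were Rpl41 (-1.07, adjusted p = 0.0142), Rps20 (-0.81, adjusted p = 0.0255), Rpl19 (-0.81, adjusted p = 0.0282) and Rps19 (-0.79, adjusted p = 0.0421). Rps20 stood at 8497 and 8503 in the 2 Ctrl libraries left and at 4329, 4836 and 5409 in KO. Rpl19 stood at 3595 and 3427 against 2190, 1862 and 1982.

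Markers of other cell types moved with the same comparison. The granulocyte and monocyte markers (6 of 6 genes with rows, Mpo the most abundant) summed to 57620 to 128629 in Ctrl HSC GFP-positive cells and 15986 to 56766 in KO. The T and NK markers (5 of 6 with rows) summed to 488 to 2873 against 313 to 608, the lymphoid priming genes (5 of 5) to 3707 to 7993 against 1817 to 3868, the erythroid markers (10 of 10) to 63.1 to 243 against 665 to 1663, and the mast cell markers (6 of 6) to 292 to 1758 against 1426 to 2284. Sums follow the abundant genes: of the 4 T and NK markers tested, 2 fell in KO and 1 rose in limma. There 3 erythroid markers and 1 mast cell marker rose, and no granulocyte and monocyte or lymphoid priming marker passed. Of the 5 B cell markers, 3 had rows. In the 3 Ctrl libraries Gata1 and Epor of the erythroid list, and Mcpt4, Cma1 and Tpsb2 of the mast cell list, stayed below 1. The number of genes above 1 was 11982 to 14455 in Ctrl and 14978 to 15566 in KO. Their part in the result was not tested.

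Within Ctrl HSC, the ribosomal protein genes were higher in GFP-positive than in GFP-negative cells. The median difference was 0.39, against -0.24 for all genes, and 76 of the 77 differences were above 0. For 25 genes all GFP-positive values exceeded all GFP-negative values (5.66% of all genes). There were 24 genes at an unadjusted p under 0.05 (17.7% of all genes), and 0 passed in limma after adjustment, with 2.72% of all genes called. The smallest p belonged to Rpl4, Rplp2 and Rps27l. Rpl4 stood at 13624, 13580 and 6248 in GFP-negative and 15969, 15013 and 17650 in GFP-positive cells, so 1 low GFP-negative library widened the gap (0.62, SE 0.21, adjusted p = 0.115). Rplp2 went from 4832, 3691 and 3801 to 6062, 6128 and 7380, without overlap (0.67, SE 0.24, adjusted p = 0.136). Without the libraries of low detection the median was 0.50 (all genes -0.12) and 5 genes rose, against 4.48% of genes called: Rpl19 (0.83, adjusted p = 0.0145), Rps20 (0.81, adjusted p = 0.0146), Rpl35a (0.82, adjusted p = 0.0259), Rps24 (0.86, adjusted p = 0.0299) and Rps25 (0.72, adjusted p = 0.0443). As a share of the 77, that count is not far above the share of all genes. Rps24 stood at 5374, 4358 and 2875 in GFP-negative cells and at 8039 and 6791 in the 2 GFP-positive libraries left. The granulocyte and monocyte marker sum was 10453 to 29329 in GFP-negative and 57620 to 128629 in GFP-positive cells, and the T and NK marker sum was 6.64 to 48.9 against 488 to 2873. In limma 3 lymphoid priming markers rose (list median 3.87) and 3 erythroid markers fell (-2.08). By GFP in KO HSC the granulocyte and monocyte median was 2.67 and that of the 77 genes -0.15. For LMPP against HSC among GFP-positive cells these medians were -3.98 and 0.55 in KO, and -3.94 and -0.38 in Ctrl. The part of these markers was not tested.

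The same Ctrl HSC GFP-positive libraries enter the comparison of LMPP with HSC among Ctrl GFP-positive cells, so its values are not independent of those above. In LMPP 71 of the 77 genes had differences below 0, with a median of -0.38 (all genes 0.19). Rps4x was the highest of the 6 above 0. In 21 genes every LMPP library lay below every HSC library (4.88% of all genes). At an unadjusted p under 0.05 there were 13 genes (15.3% of all genes), and 0 passed in limma after adjustment, where 0.894% of genes were called. Rps19 was at 2770, 1634 and 2540 in LMPP, clear of the HSC values (-0.73, adjusted p = 0.132), and Rpl41 gave -0.90 (adjusted p = 0.139). Without the libraries of low detection the median was -0.47 (all genes 0.10) and 3 genes fell, against 3.57% of genes called: Rpl41 (-0.91, adjusted p = 0.0229), Rpl34 (-0.81, adjusted p = 0.0354) and Rps19 (-0.74, adjusted p = 0.0434). As shares of the 77, these 3 genes and the 13 above are both close to the shares of all genes.

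In KO cells the order was the other way, and 1 library carried much of it. LMPP GFP-positive cells were higher than HSC GFP-positive cells in all 77 genes, with a median of 0.55 (all genes -0.11). Every LMPP library lay above every HSC library in 36 genes (6.95% of all genes). There were 32 genes at an unadjusted p under 0.05 (11.4% of all genes) and 0 after adjustment in limma (0.611% of genes called). The small subunit gene Rps9 came nearest, at 4494, 4809 and 4728 in HSC and 5948, 7331 and 12324 in LMPP, without overlap (0.80, SE 0.21, adjusted p = 0.0979). Rps13 was at 1550, 1305 and 872 against 2568, 1890 and 3697, also without overlap (1.11, SE 0.32, adjusted p = 0.145). Without the libraries of low detection the median was 0.28 (all genes 0.03) and Rps9 and Rps13 gave 0.50 (adjusted p = 0.396) and 0.86 (adjusted p = 0.309).

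The 2 other comparisons with KO LMPP GFP-positive cells depended on replicate 3 in the same way. Against KO LMPP GFP-negative cells the median was 0.54 (all genes -0.22). Every GFP-positive library was above in 25 genes (8.05% of all genes), 32 genes had an unadjusted p under 0.05 (15.5% of all genes) and 0 passed in limma (1.15% called). Rps24 stood at 4301, 3551 and 3107 in GFP-negative and 6363, 4511 and 13834 in GFP-positive cells, without overlap (1.02, SE 0.29, adjusted p = 0.0816). Without the libraries of low detection the median was 0.26 (all genes -0.01) and Rps24 gave 0.56 (adjusted p = 0.374). Rpl9, next in p after Rps27l and Rps24, gave 0.58 (adjusted p = 0.17). Against Ctrl LMPP GFP-positive cells the median was 0.40 (all genes -0.10), and 15 genes had an unadjusted p under 0.05 (7.72% of all genes). In limma 0 passed (0.0432% called), and in 0 of the 77 did every KO library lie above every Ctrl library (4.3% of all genes). Rpl36a stood at 2646, 1964 and 2128 in Ctrl and 2679, 2646 and 13524 in KO (1.04, adjusted p = 0.626), and 0.26 (adjusted p = 1) without the libraries of low detection. There the median of the 77 genes was 0.11 (all genes 0.03). Rpl13a (1.03) and Rpl17 (0.83), next in p, also had adjusted p = 0.626.

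**Figure D2:**
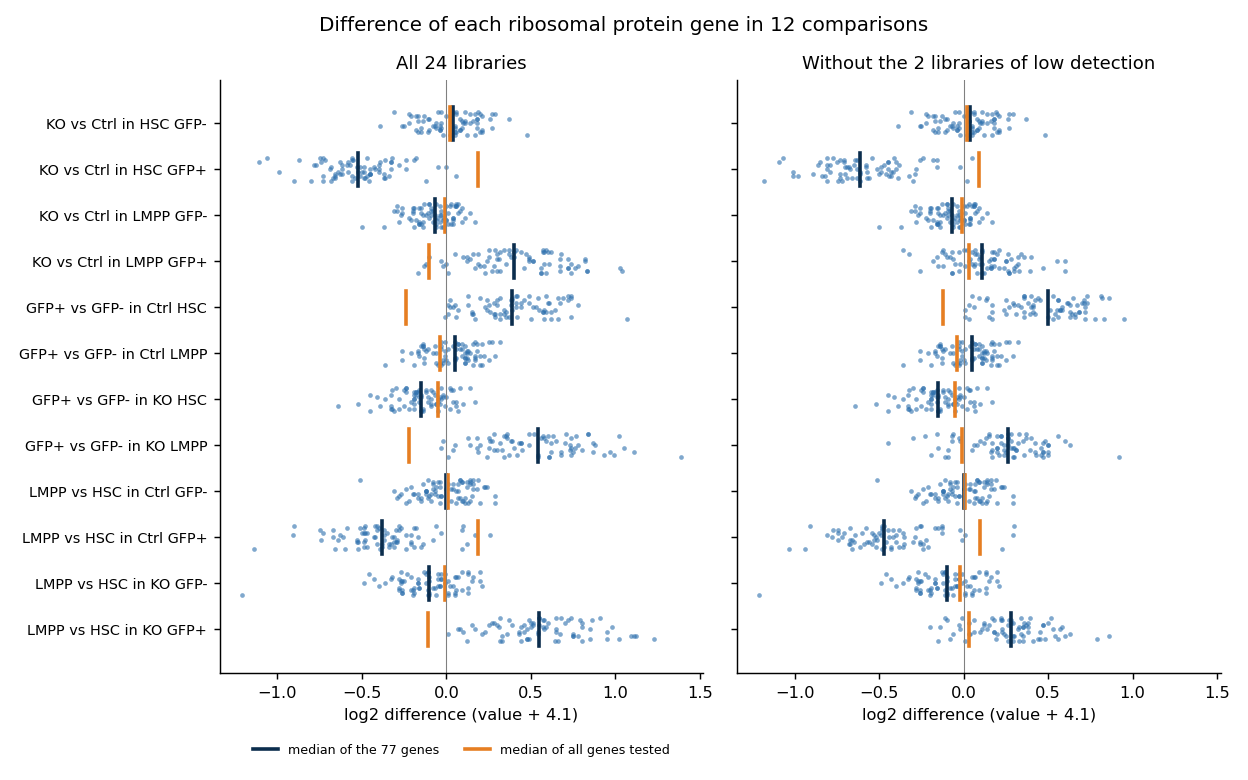
Difference of each of the 77 genes (blue points, log2 of the value plus 4.1) in the 12 comparisons of 2 groups, from all 24 libraries (left) and without the 2 libraries of low detection (right). Dark bars mark the median of the 77 genes and orange bars the median of all genes tested; in KO against Ctrl HSC GFP-positive cells they stand at -0.52 and 0.19 on the left and at -0.61 and 0.09 on the right, while in KO against Ctrl LMPP GFP-positive cells they move from 0.40 and -0.10 to 0.11 and 0.03.

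Inside KO LMPP GFP-positive replicate 3 the family was not raised evenly. Relative to the mean log2 level of the 2 other libraries of its group, the median of the 77 genes was 0.89 and that of all genes -0.57, and 36 of the 77 lay above 1, as did 17.7% of all genes. The highest were Rpl13a (4256 and 4244 in the 2 other libraries, 25572 in replicate 3), Rps29, Rpl36a, Rps21 and Rpsa, the laminin receptor protein of the small subunit (4577 and 4686, then 22923). The differences for these 5 ran from 2.31 to 2.59. Conversely 15 genes lay below 0, among them Rpl15 (-1.08), Rpl10 (-0.87) and Rpl31 (-0.60). Replicate 3 held the highest value of the 24 libraries for 53 of the 77 genes, a count that was not made over all genes. The small subunit made up 48.7% of the family's sum there and 37.2 to 41.8% in the other 23 libraries. In the same library the erythroid markers summed to 10119, against 934 and 1467 in the 2 others, with the globin gene Hbb-bs at 5165 against 421 and 559, and the stroma and endothelium markers (4 of 6 with rows) summed to 3845 against 1214 and 1297, nearly all of it Pecam1. Their part was not tested. Ctrl HSC GFP-positive replicate 2 did not show the same: its median was -0.14 (all genes -0.28), with only Rps3 above 1 (1.10) and Rpl24 lowest (-1.13).

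**Figure D3:**
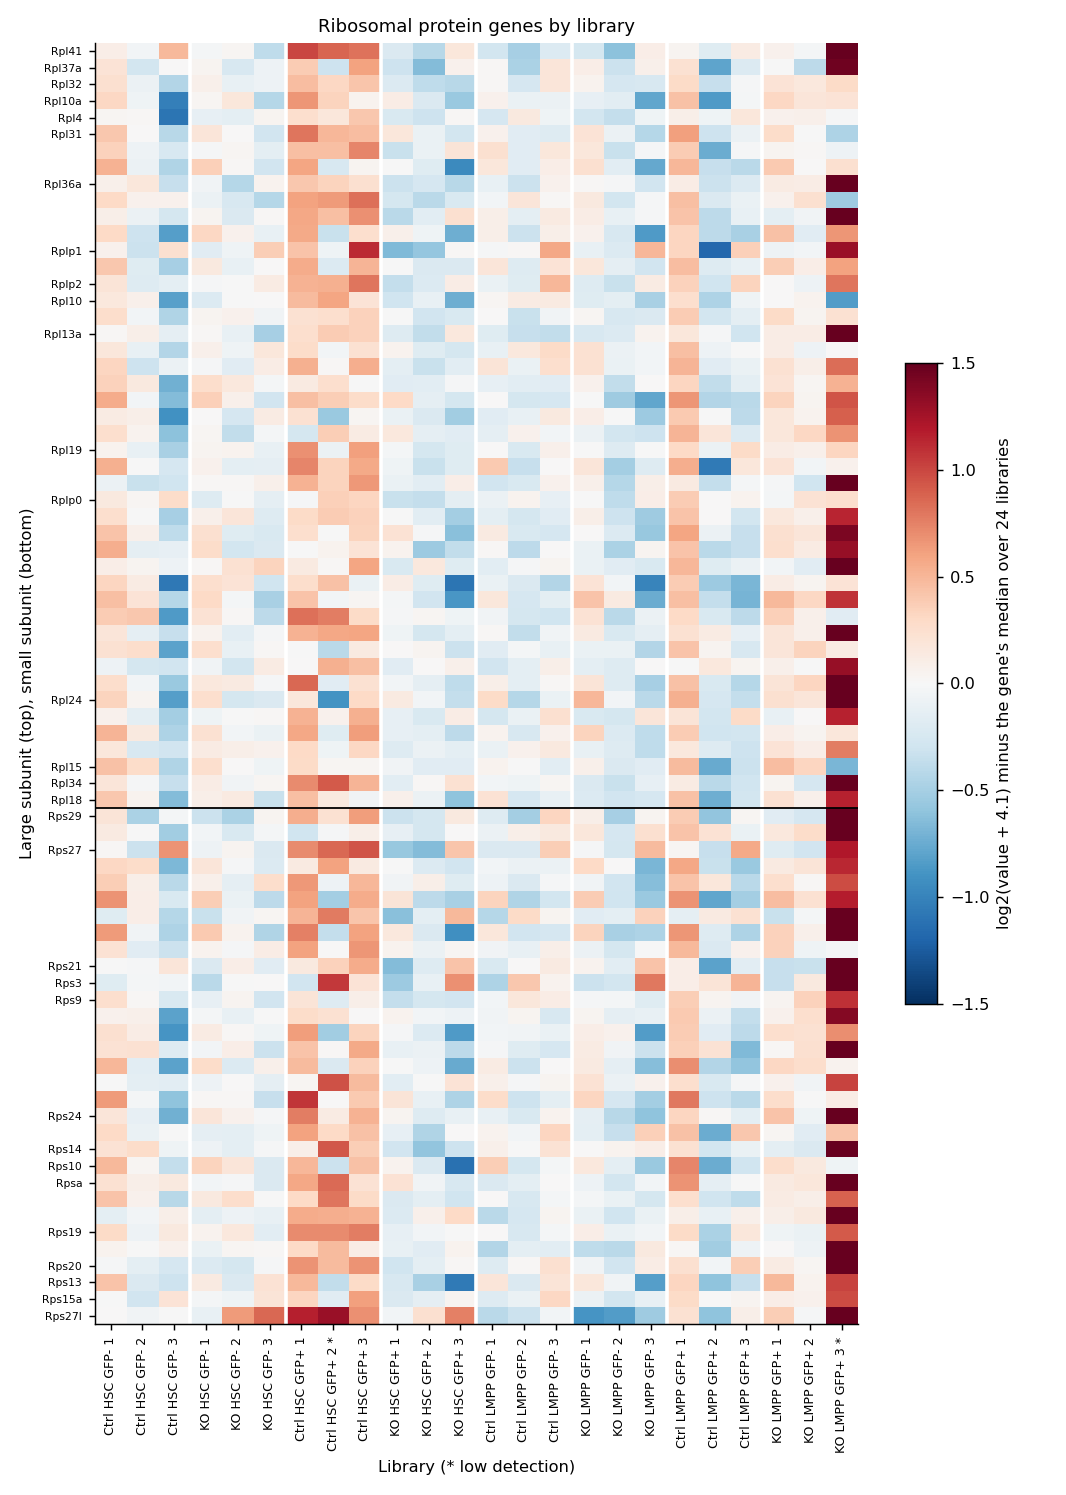
Level of the 77 genes in each of the 24 libraries (log2 of the value plus 4.1, minus the gene's median over all libraries; red higher, blue lower, colours end at 1.5 in either direction), large subunit above the black line and small subunit below, each ordered by level per kb, with a selection of rows named. The 3 Ctrl HSC GFP-positive columns are red for most genes, and the column of KO LMPP GFP-positive replicate 3 mixes deep red with blue genes such as Rpl15 and Rpl10.

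In the other comparisons the family stayed near the median of all genes. KO against Ctrl gave a median of 0.04 (all genes 0.02) in HSC GFP-negative and -0.07 (all genes -0.01) in LMPP GFP-negative cells. GFP-positive against GFP-negative gave 0.05 (all genes -0.04) in Ctrl LMPP and -0.15 (all genes -0.05) in KO HSC cells. LMPP against HSC gave 0.00 (all genes 0.01) in Ctrl GFP-negative and -0.10 (all genes -0.01) in KO GFP-negative cells. In limma 0 of the 77 genes passed in any of these 6, where 0.16, 0.0555, 0.0555, 0.376, 0.37 and 0.876% of all genes were called in the order given. At an unadjusted p under 0.05 the 6 counts were 0, 0, 0, 0, 0 and 1 gene, against 3.44, 2.48, 4.96, 5.41, 4.59 and 8.15% of all genes. The single gene was Rps27l. Those with the smallest p elsewhere included Rplp0, between genotypes in HSC GFP-negative cells (4213, 3891 and 4610 in Ctrl, 3329, 3783 and 3463 in KO, a log2 difference of -0.26 with adjusted p = 1) and Rps13 in KO HSC by GFP (2013, 1571 and 2127 in GFP-negative, 1550, 1305 and 872 in GFP-positive, -0.64 with adjusted p = 0.948). In both, the groups did not overlap. Others were Rpl4 (0.27) in the first comparison, Rpl10 (-0.37), Rpl9 (-0.26) and Rps27l (-0.50) in the second, Rplp0 (0.20), Rpl41 (0.32) and Rpl19 (0.21) in the third, Rpl32 (-0.30) and Rps10 (-0.52) in the fourth, Rpl41 (-0.51), Rpl4 (0.29) and Rpl30 (0.24) in the fifth and Rps24 (-0.46) and Rpl7a (-0.49) in the sixth.

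Whether these differences themselves differed was tested with interaction terms. For genotype and GFP in HSC the median over the 77 genes was -0.54 (all genes 0.17), 9 genes had an unadjusted p under 0.05 (7.11% of all genes), and 0 passed in limma (0.00617% called). Without the libraries of low detection the median was -0.63 (all genes 0.06). For genotype and GFP in LMPP it was 0.53 (all genes -0.11), with 5 genes (3.27% of all genes), and 0.19 without the libraries of low detection. For genotype and population in GFP-negative cells it was -0.09, with 0 genes (2.37% of all genes). In these 2 interactions 0 members passed and 0% of genes were called. For genotype and population among GFP-positive libraries the median was 0.90 (all genes -0.33), all 77 were above 0, and 48 genes had an unadjusted p under 0.05 (12.5% of all genes). There 0 members passed in limma, with 0.0308% of genes called. Rpl41 had the smallest p (1.64, SE 0.43, adjusted p = 0.206), then Rpl32 (0.98, SE 0.27, adjusted p = 0.22). Without the libraries of low detection the median was 0.70 (all genes -0.04) and Rpl41 and Rpl32 gave 1.09 and 0.99.

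Rps27l went in the direction of the family median in many comparisons, often further. It gave 1.07 by GFP in Ctrl HSC, the highest member, and -1.14 between populations in Ctrl GFP-positive cells, the lowest. Between genotypes in HSC GFP-positive cells it gave -0.73. It stood far from the family median (-0.10) in LMPP against HSC among KO GFP-negative cells. Rps27l encodes a paralogue of Rps27, and its human counterpart is known as a direct p53 target. Reads shared between paralogues could be counted with either. Rps27l stood at 282, 271 and 280 normalised counts in Ctrl HSC GFP-negative, 638, 693 and 456 in Ctrl HSC GFP-positive, 212, 224 and 273 in Ctrl LMPP GFP-negative and 330, 183 and 300 in Ctrl LMPP GFP-positive cells. In KO it stood at 260, 438 and 512 in HSC GFP-negative, 273, 333 and 476 in HSC GFP-positive, 150, 156 and 193 in LMPP GFP-negative and 363, 277 and 849 in LMPP GFP-positive cells. Its lowest group was thus KO LMPP GFP-negative, whose libraries lay wholly below those of KO HSC GFP-negative cells (log2 difference -1.21, SE 0.39, adjusted p = 0.194). Rps27l fell in that comparison without the libraries of low detection (-1.21, SE 0.3, adjusted p = 0.0219), where 2.85% of genes were called, and neither of the libraries left out belongs to it. Rps27l was the only member that passed there, a smaller share than that of all genes. In KO LMPP it was higher in GFP-positive cells without overlap (1.39, SE 0.39, adjusted p = 0.0816), and 0.92 (adjusted p = 0.286) without the libraries of low detection. Rps27 itself gave 4838, 5371 and 5666 in Ctrl HSC GFP-positive and 1981, 1883 and 3947 in KO HSC GFP-positive cells, the lowest difference of the 77 genes there (-1.11, SE 0.34, adjusted p = 0.139). For LMPP against HSC among KO GFP-negative cells Rps27 gave 0.16, and by GFP in KO LMPP it gave 0.18. Of the 13 p53 target genes tested, a list chosen with earlier results known, the median for LMPP against HSC in KO GFP-negative cells was -0.23, and in limma 0 passed, with 2 at an unadjusted p under 0.05. In KO LMPP by GFP the median was 0.19, Cdkn1a rose (3.81, SE 0.95, limma adjusted p = 0.0442) and Sesn2 fell (-3.54, SE 0.77, adjusted p = 0.0178). With both libraries of low detection left out, Cdkn1a (3.22, adjusted p = 0.122) and Sesn2 (-3.23, adjusted p = 0.0512) did not pass.

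**Figure D4:**
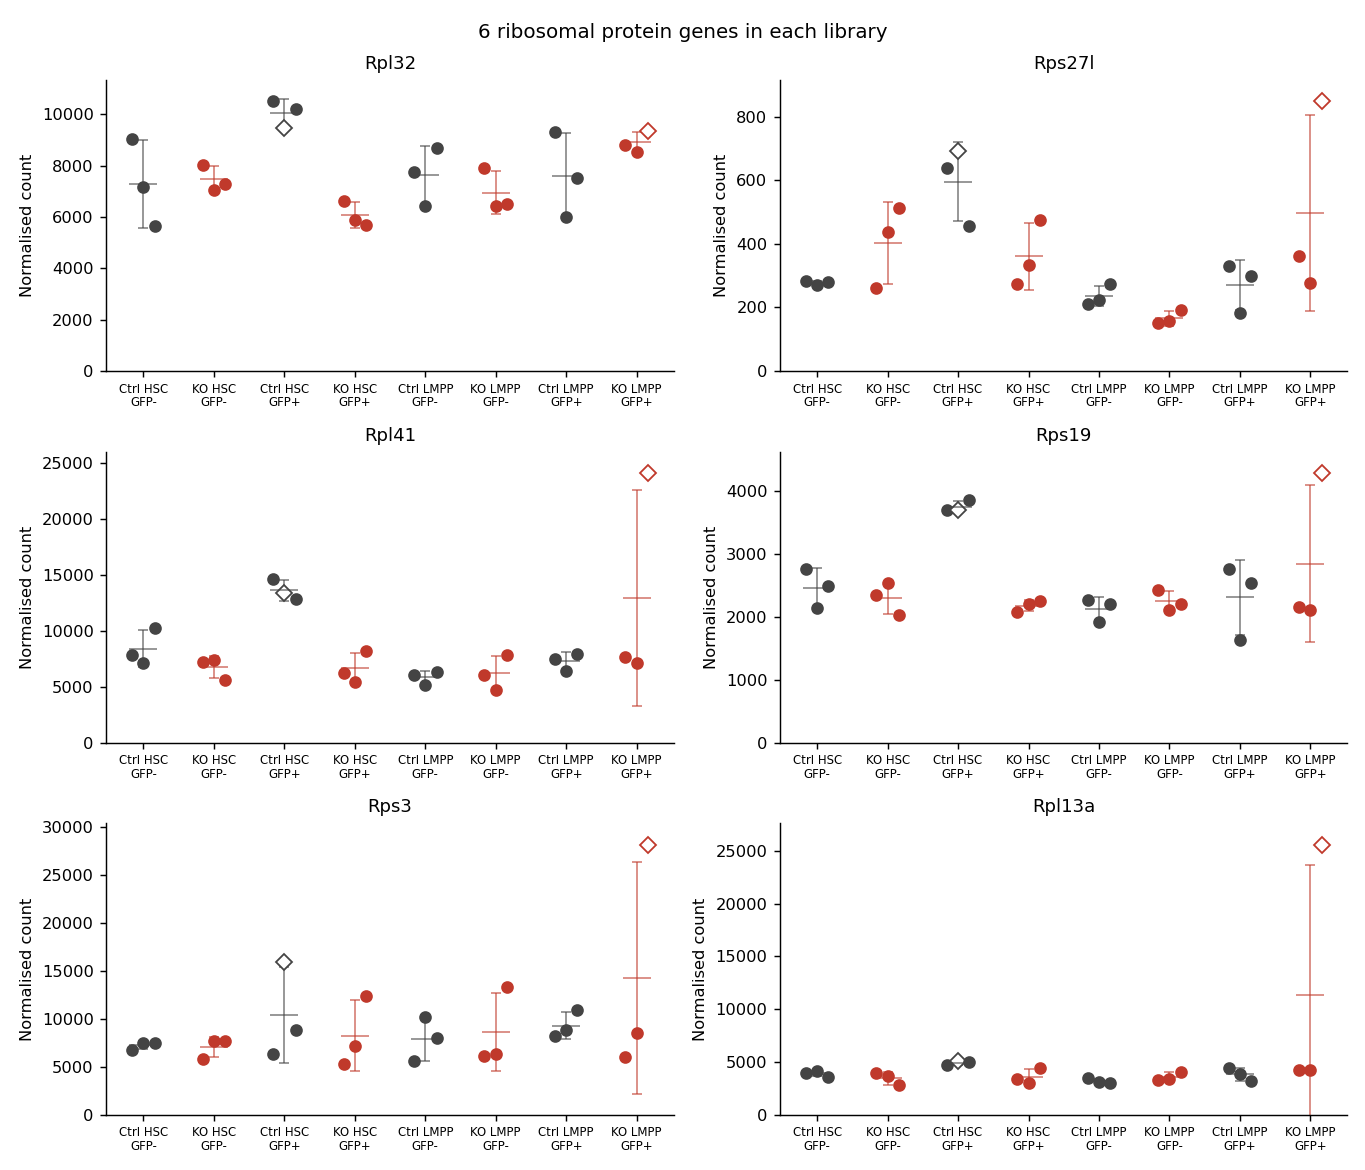
Normalised counts of 6 ribosomal protein genes in each library, by group (dark grey Ctrl, red KO, open diamonds the 2 libraries of low detection; bars are the mean ± SD of 3, cut at 0 where the SD exceeds the mean). Rpl32, Rpl41 and Rps19 are higher in the 3 Ctrl HSC GFP-positive libraries than in the 3 KO HSC GFP-positive libraries, and Rpl13a reaches 25572 in a single library.

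Some members also differed within groups in a way that followed the replicate number. Replicate 1 held the highest median of the 77 genes in 6 of 8 groups (7 without the libraries of low detection). For 4 genes replicate 1 was the highest library in no group. It was the highest in all 8 groups for 7 genes (Rpl13, Rpl15, Rpl28, Rpl31, Rps10, Rps26 and Rps28) and in 7 groups for 8 more. Rps10, a Diamond-Blackfan anaemia gene, showed it: 3375, 2459 and 1871 in Ctrl HSC GFP-negative, 3990, 1431 and 1960 in Ctrl LMPP GFP-positive and 2494, 2075 and 1108 in KO HSC GFP-positive cells. Rps3, a small subunit gene whose product also has a DNA repair role, went the opposite way and was lowest in replicate 1 in all 8 groups. It stood at 5247, 7127 and 12335 in KO HSC GFP-positive, 6127, 6331 and 13300 in KO LMPP GFP-negative and 5581, 10144 and 7950 in Ctrl LMPP GFP-negative cells. All 8 replicate 1 libraries listed no gene at 0, as did 5 of the 16 others, so the number moves with a property of the files. The part of that property was not tested. These ranks were counted over the 77 genes only, so no share of all genes stands beside them. Fits with a block on the replicate number are given among the alternatives below. Over the 22 libraries left without those of low detection, the highest library exceeded the lowest by a median of 2.33 times. Among the steadiest genes were Rpl9 (1.61 times) and Rps9 (1.66), and among the most variable Rplp1 (4.91), Rps27l (4.27) and Rps10 (3.60).

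Genes that make, regulate or work beside the ribosome were read from lists chosen with earlier results known. In KO against Ctrl HSC GFP-positive cells the 22 other translation genes with TOP tracts (Eef1a1, Eef2, Tpt1 and others) had a median of -0.24, and the 8 related genes outside the naming rule, such as Fau and Rack1, had -0.19. The 54 ribosome biogenesis genes stood at 0.06, the 19 genes of mTORC1 and MYC control at -0.06 and the 76 mitochondrial ribosomal protein genes at -0.02, each below the median of all genes (0.19). The 72 genes of the nuclear respiratory chain, which share short and abundant mRNAs, had -0.17, the 39 proteasome subunits -0.07 and the 12 mitochondrially encoded genes -0.59. In limma 0 genes of these 8 lists passed there, and 5, 1, 7, 2, 12, 11, 2 and 3 genes had an unadjusted p under 0.05 in the order given. As shares of their lists, all but the first and the last were near or below the share of all genes given above for this comparison. The 8 medians without the libraries of low detection were -0.23, -0.44, -0.03, -0.16, -0.19, -0.37, -0.04 and -0.42, against 0.09 for all genes. Biogenesis changed sign, but the median of all genes moved down by a similar amount. In Ctrl HSC by GFP the same lists gave 0.22, 0.42, 0.05, 0.05, 0.10, 0.17, 0.19 and 0.61, against -0.24 for all genes, and 0.19, 0.53, 0.04, -0.02, 0.27, 0.39, 0.30 and 0.48, against -0.12, without the libraries of low detection. Of them Gnl2, a nucleolar biogenesis factor (1.45, SE 0.34, limma adjusted p = 0.019), and mt-Co1, a cytochrome oxidase subunit (0.82, SE 0.22, adjusted p = 0.0478), rose, and Mrpl55 fell (-2.84, SE 0.75, adjusted p = 0.0376). Without those libraries Gnl2 passed (1.31, adjusted p = 0.0237) and mt-Co1 (0.69, adjusted p = 0.131) and Mrpl55 (-2.04, adjusted p = 0.062) did not. In KO LMPP by GFP the lists gave medians of 0.57, 0.68, 0.46, -0.11, 0.14, 0.72, 0.62 and 0.57 in the same order, and without the libraries of low detection 0.31, 0.29, 0.38, 0.21, 0.27, 0.34, 0.35 and 0.18. The respiratory chain gene Cox6a2 (4.75, SE 0.75, adjusted p = 0.00126) and the immunoproteasome subunit gene Psmb8 (1.5, SE 0.33, adjusted p = 0.0178) rose there. Without those libraries Cox6a2 passed (4.48, adjusted p = 0.00439) and Psmb8 did not (1.01, adjusted p = 0.073). The shares of all genes called by GFP in Ctrl HSC and in KO LMPP are given with those comparisons above.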

How the data were processed

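Per the labels, total RNA of sorted cells was made into low-input libraries and sequenced for 76 cycles. The submitters' processing notes name Trimmomatic 0.33, HTSeq 0.6.1, edgeR without a version and the build mm10. Which aligner was used is not given in these sources. Signal values, as deposited, are the authors' normalised counts, which are not whole reads, so no count model was used. Members and gene lists were chosen with earlier results of these data known. The replicate number and the description number are in the labels, and the labels do not say what either marks, so neither entered the main model. Each description number recurs in all populations of its genotype. The main p-values therefore treat libraries that share a number as independent. The filter asked for 1 ppm or more in 3 or more libraries (16215 genes), and 4.1 (0.5 ppm of the mean total) was added before log2. All 24 libraries entered a model of 8 group means in limma 3.58.1 in R 4.3.3 (trended empirical Bayes), and the script was tested on simulated data. p-values are two-sided and Benjamini-Hochberg adjusted over all genes within each of 16 comparisons. Named genes are those that passed, the 3 smallest p where fewer than 5 passed, the 5 highest and lowest per kb, and a list of stalk, disease and paralogue genes; the others (such as Rpl19, Rps20 and Rps25, which passed in an alternative, Rpl24 and Rps21) were named after their values were seen. Some genes that the rule names are not reported here. Alternatives were another filter, pseudocount or scaling, array weights, blocks, fewer libraries and each library left out.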

Additional observations from a re-analysis of the deposited data

How the results depend on the processing

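The 16 counts of members that passed were the same without the filter, with a pseudocount of 0.1 ppm and with median-ratio scaling. In HSC GFP-positive cells, the count between genotypes (1) became 5 without both libraries of low detection, 0 under array weights and 0 from the compared libraries alone, and 0 to 1 with 1 library left out (0 without Ctrl replicate 2 or KO replicate 1, 2 or 3). The count by GFP in Ctrl HSC (0) became 5 without both, and 0 to 1 with 1 left out (Ctrl HSC GFP-positive replicate 2). By GFP in KO LMPP (0) it became 1 under array weights, and 0 to 5 with 1 left out (2 without GFP-positive replicate 1, 5 without replicate 2). LMPP against HSC (0 each) gave 3 in Ctrl GFP-positive cells without both libraries, 1 in KO GFP-negative cells without both and 1 under array weights, and 0 to 2 in KO GFP-positive cells with 1 left out (2 without LMPP replicate 1, 1 without LMPP replicate 2). A replicate block by replicate number gave 3 between genotypes in HSC GFP-positive cells and 1 by GFP in Ctrl HSC. A replicate block by description number gave 1 by GFP in Ctrl HSC and 1 by GFP in KO LMPP. The blocks changed no other count. Same-numbered deviations correlated above 0.1 in all 3 pairs in 0 of 12 comparisons over all genes and in 5 of 12 over the 77 genes (-0.18 to 0.78), so the pairing was not taken up for the whole table. Settings chosen after seeing the data left out both libraries as well. The replicate number block then gave 18 (genotypes, HSC GFP-positive), 6 (GFP, Ctrl HSC), 3 (populations, Ctrl GFP-positive) and 1 (populations, KO GFP-negative), the description number block 6, 2 and 1 for the last 3, and the scaling 8, 10, 4 and 1.

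The median of the 77 genes minus that of all genes moved by more than the spread between libraries (0.43) only for GFP in KO LMPP among the 12 comparisons of 2 groups, from 0.75 to 0.27 without both libraries, and it ran from 0.27 (without GFP-positive replicate 3) to 1.03 with 1 left out. In the other comparisons that the text turns on, it ran from -0.77 to -0.67 (genotypes, HSC GFP-positive), 0.44 to 0.78 (GFP, Ctrl HSC), -0.78 to -0.44 (populations, Ctrl GFP-positive), 0.24 to 0.94 (populations, KO GFP-positive) and 0.08 to 0.75 (genotypes, LMPP GFP-positive). Without Ctrl HSC GFP-negative replicate 3, Rpl4 reversed to -0.10 between genotypes in HSC GFP-negative cells and to -0.08 between populations in Ctrl GFP-negative cells, the ends of ranges that reached 0.46 and 0.48 with 1 library left out. The cause was not tested. Values are relative normalised counts with unequal library totals, depth in reads is unknown, and 3 libraries a group limit the precision.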
